A study of Mus musculus with 24 samples.

Results

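Collagens and laminins build the extracellular matrix and the MMP and ADAMTS metalloproteases cut it, and 85 genes of these kinds were followed in the mouse hippocampus after loss of *Tsc1*. The members are the protein-coding genes whose GENCODE mouse symbol is that of a collagen chain (Col followed by a number, a and a number), a laminin chain (Lama, Lamb or Lamc and a number), a matrix metalloprotease (Mmp and a number) or an ADAMTS protease (Adamts and a number), and whose mean over the 24 mice was at least 0.5 CPM (counts per 1000000 counts of the library). Of 55385 gene identifiers in the count tables, 95 carried such a symbol and 85 passed the minimum: 43 of 44 collagens, 11 of 11 laminins, 12 of 21 MMPs and 19 of 19 ADAMTS proteases. The member closest above the minimum was *Col28a1* at 0.557 CPM, and the genes closest below it were *Col9a1* at 0.472 and *Mmp25* at 0.443 CPM.

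The study followed the development of epilepsy in mice 16 to 22 weeks old, of both sexes, in which both copies of *Tsc1* are flanked by loxP sites. The labels give the strain as Tsc1f/f-Tg(Camk2a-CreERT2) with or without Cre, and all 24 mice, controls included, received tamoxifen. *Tsc1-Cre-* controls carried the floxed alleles without Cre and were taken on day 8 after the first tamoxifen injection. *Tsc1-Cre+* mice carried the transgene and were taken on day 4, 6, 8 or 13. *Tsc1-Cre+*-Rap 4 mice received rapamycin at 10 mg/kg daily from day 4 and were taken on day 13, and the other groups received no drug besides tamoxifen. Each group held 4 mice, called A to D within the group, and each mouse gave 1 library. *Camk2a* drives Cre in forebrain excitatory neurons, so vessel, glial and meningeal cells, which make much of the matrix, kept *Tsc1* in this design, and the RNA came from whole hippocampi.

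Type IV collagen and laminin assemble into the basement membrane around brain vessels and at the pial surface, where a laminin is a trimer of an alpha, a beta and a gamma chain. Fibrillar collagens form the stiff fibers of meninges and vessel walls, fibril-associated collagens coat them, and transmembrane collagens sit on cells, neurons among them. MMPs and ADAMTS proteases cut these proteins and the proteoglycans of the brain's own matrix. TSC1 holds back the kinase complex mTORC1, which rapamycin inhibits.

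The targeted gene was lower in every *Tsc1-Cre+* mouse: *Tsc1* stood at 109, 103, 106 and 103 CPM in the controls, 57.4, 59.02, 68.9 and 68.9 on day 13 and 66.3, 66.00, 68.1 and 68.95 under rapamycin. Total counts ranged from 28208561 to 126435936 per mouse (median 55582027), and the members took 0.143% to 0.216% of them. The 8 neuron markers (*Rbfox3*, *Camk2a*, *Snap25*, *Prox1*, *Neurod6*, *Slc17a7*, *Gad1* and *Gad2*) summed to 3765 to 5247 CPM in the 24 mice, and none was at 0 in all mice. The names under which the counts were deposited carry a number for each mouse, taken here as an animal number. By these numbers, control and day 8 mice come from the same 2 runs and every other group from runs of its own. There the run and the condition cannot be told apart. The labels call the 4 libraries of a group separate mice.

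CPM values are counts scaled with TMM factors over all 24 mice. Levels of different genes are compared only as CPM per kilobase of exon, and on that scale each family was led by few members. Among collagens, the type IV pair stood highest, with *Col4a2* at 19.7 and *Col4a1* at 19.01 CPM per kb, ahead of *Col25a1* at 5.97, *Col19a1* at 5.49 and *Col11a2* at 5.10. Laminins were led by *Lamc1* at 8.35, the gamma chain of most laminins, followed by *Lamb1* at 6.64 and *Lamb2* at 6.03 CPM per kb. *Mmp17*, which encodes a lipid-anchored protease of the cell surface, had the highest level per kb of all 85 members, 27.5, and the membrane-type enzymes *Mmp16* (10.3) and *Mmp24* (9.10) came next in that family. ADAMTS levels reached 7.93 CPM per kb for *Adamts1*, 5.59 for *Adamts20* and 5.55 for *Adamts3*. The lowest members per kb were *Adamts19* at 0.0831 and *Adamts7* at 0.0986.

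For each comparison the 8 mice concerned were tested with edgeR's quasi-likelihood method: the 5 groups of *Tsc1-Cre+* mice each against the controls, and rapamycin against day 13. A gene was called higher or lower at a Benjamini-Hochberg adjusted p under 0.05, over all genes tested, with an absolute log2 fold change over 0.5, and all adjusted p values given are of this kind. All 85 members were tested in all 6 comparisons, and 34 were called in at least 1 of them. The share of all genes called in at least 1 comparison was not counted, so this number does not set the members apart. Few moved early, with 1 member called lower on day 4 and 1 on day 6, and 3 higher and 4 lower on day 8. On day 13, 14 members were higher (16.5%) and 6 lower (7.06%), beside 8.4% higher and 8.06% lower among all 24920 genes tested. Against day 13, the rapamycin group had 22 members lower (25.9%) and 6 higher (7.06%), beside 11.2% and 9.94% of all 24274 genes. With all 8 mice, the shares of members that were higher on day 13, and lower under rapamycin than on day 13, exceeded the background, while the shares in the other direction lay below it. Without day 13 mice A and B the tilt on day 13 was gone: 8 members were higher (9.41%, beside 4.89% of all genes) and 9 lower (10.6%, beside 4.78%), both above the background. Between rapamycin and day 13, 13 members were then lower (15.3%, beside 6.94%) and 7 higher (8.24%, beside 6.25%).

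**Figure D1:**
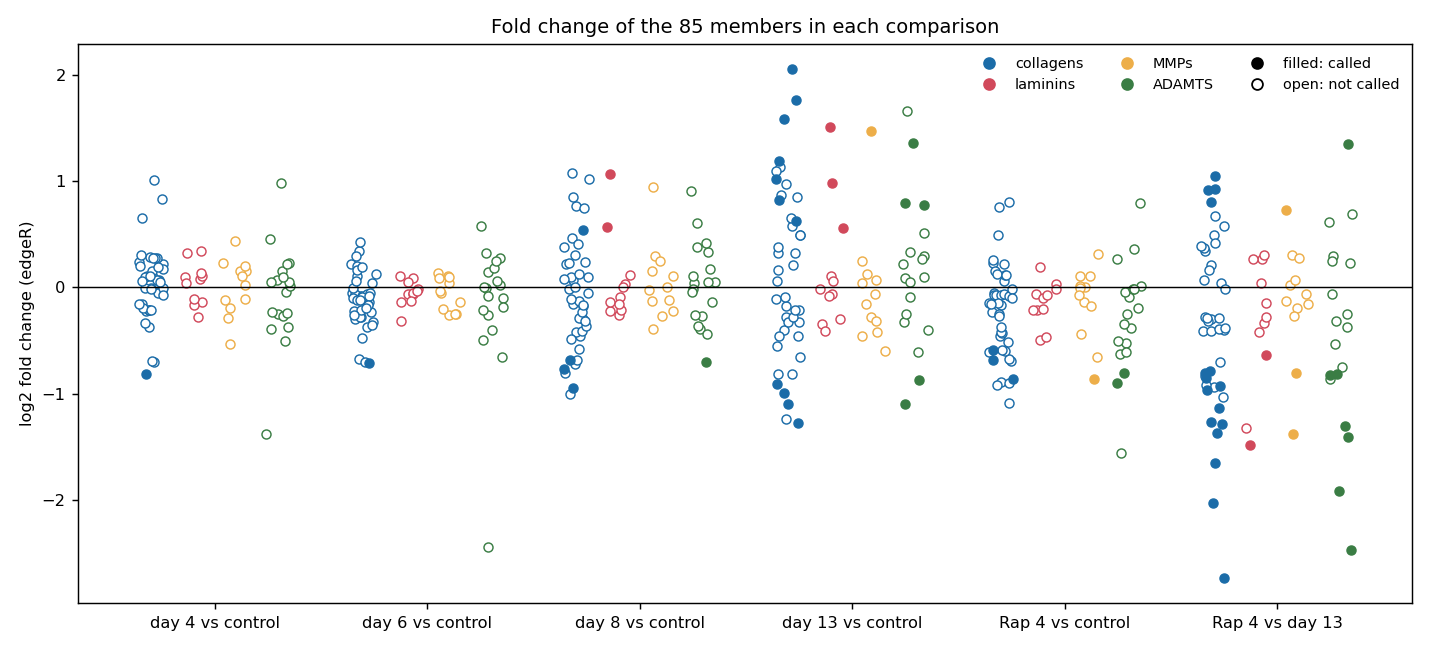
Log2 fold change (vertical axis, edgeR) of each of the 85 members in the 6 comparisons (horizontal axis), 1 circle per gene, colored by family and filled where the gene was called. Filled circles are few on days 4 and 6, number 7 on day 8, 20 on day 13 and 28 between rapamycin and day 13.

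On day 4 the single called member was *Col22a1*, a fibril-associated collagen of tissue junctions. Its levels were 8.04, 5.57, 5.25 and 5.94 CPM in control mice A to D and 3.18, 4.09, 2.78 and 4.04 on day 4, so the groups did not overlap (log2 fold change -0.81, SE 0.16, adjusted p = 0.0154). All genes on day 4 gave 0.34% called in each direction. On day 6 the single called member was *Col6a6*, a chain of beaded-filament collagen VI, at 1.89, 1.47, 1.86 and 1.34 CPM in the controls and 0.883, 1.26, 0.747 and 1.12 on day 6. This low-level gene passed narrowly (log2 fold change -0.71, SE 0.19, adjusted p = 0.0325), beside 0.647% of all genes higher and 0.678% lower. The adjusted p was 0.256 with all 24 mice in the fit and up to 0.101 without 1 of control mice A and C and day 6 mice A, C and D. No member was called higher on either day by edgeR or by DESeq2, and with 4 mice a group smaller changes could be missed. On day 8, in other mice, *Col22a1* and *Col6a6* stood at 6.60 ± 1.07 and 1.54 ± 0.229 CPM (mean ± SD, n = 4), beside 6.201 ± 1.26 and 1.64 ± 0.275 in the controls. Day 8 and control mice share runs of animal numbers, which mice of days 4 and 6 do not, so run and day cannot be told apart.

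By day 8, 3 members were higher (3.53%, beside 2.15% of all genes) and 4 were lower (4.71%, beside 1.84%). Basement membrane chains were among the rises. *Lama4*, an alpha chain of vessel laminins, went from 8.90, 10.4, 11.3 and 7.67 to 12.1, 14.3, 18.3 and 12.8 CPM, every day 8 mouse above every control (log2 fold change 0.57, SE 0.15, adjusted p = 0.0287). *Col4a1* read 122, 105, 103 and 105 CPM in the controls and 175, 127, 203 and 135 on day 8, where mice A and C were the highest (log2 fold change 0.54, SE 0.13, adjusted p = 0.0216). The calls were lost in some fits that left out 1 mouse. For *Lama4* these were control mice A, B and D and day 8 mouse C (adjusted p up to 0.0822), and for *Col4a1* control mice B, C and D and day 8 mice A and C (up to 0.0686).

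The 4 lower members on day 8 included both transmembrane collagens, of 4 measured, that were called in any comparison. *Col25a1*, which encodes a neuronal transmembrane collagen whose outer part is shed, was at 99.1, 99.7, 88.6 and 102 CPM in the controls and 57.6, 59.9, 59.6 and 67.2 on day 8. No day 8 mouse overlapped the controls and the spread was small (log2 fold change -0.69, SE 0.065, adjusted p = 0.000210). *Col13a1*, a transmembrane collagen of cell contacts, had 1.19, 2.00, 2.25 and 1.03 and 0.746, 0.726, 0.957 and 0.970 CPM, a narrow call (log2 fold change -0.95, SE 0.26, adjusted p = 0.0369) that was lost without 1 of control mice B and C and day 8 mice A and B (up to 0.111). *Col15a1*, a collagen of the basement membrane zone, fell from 6.68, 6.82, 5.41 and 5.94 to 3.73, 3.53, 3.15 and 4.34 CPM (log2 fold change -0.77, SE 0.13, adjusted p = 0.00390). *Adamts17*, a secreted protease of fibrillin-rich matrix, fell from 23.1, 23.6, 24.2 and 23.6 to 13.1, 16.3, 10.8 and 18.4 CPM (log2 fold change -0.70, SE 0.14, adjusted p = 0.00819). All 7 calls held when the runs of animal numbers, common to day 8 and control mice, entered the fit.

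On day 13, 7 of 43 collagens were higher and 4 lower, 3 of 11 laminins and 1 of 12 MMPs were higher, and 3 of 19 ADAMTS proteases were higher and 2 lower. Among all genes 8.4% were higher and 8.06% lower. By collagen type, the rises were 4 of the 11 fibrillar chains, 2 of the 6 basement membrane chains and 1 of the 8 fibril-associated chains. The median log2 fold change was 0.056 over collagens, -0.015 over laminins, -0.11 over MMPs and 0.10 over ADAMTS proteases, beside -0.040 over all genes.

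The type IV pair and laminin chains rose on day 13, in a comparison that shares the control mice with day 8. *Col4a1* (chr8:11198423-11312826, minus strand), which with *Col4a2* encodes the chains of the common type IV collagen trimer, was at 292, 351, 189 and 176 CPM in day 13 mice A to D, all above the highest control at 122 (log2 fold change 1.19, SE 0.20, adjusted p = 0.00309). *Col4a2* (chr8:11312805-11449287, plus strand) was at 118, 102, 103 and 100.5 CPM in the controls and 221, 225, 174 and 141 on day 13 (log2 fold change 0.82, SE 0.13, adjusted p = 0.00295). Both were highest in mice A and B. *Lama4* reached 18.2, 23.02, 14.8 and 20.5 CPM, again with no overlap with the controls (log2 fold change 0.98, SE 0.16, adjusted p = 0.00285), and *Lamc1* went from 63.6, 66.00, 62.1 and 56.5 to 112, 99.9, 80.9 and 77.7 CPM (log2 fold change 0.56, SE 0.11, adjusted p = 0.00748). *Lamc1* fell short of the fold minimum without day 13 mouse A.

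Other laminin chains did not pass, of which 3 are given as examples chosen after their values were seen. *Lamb1*, *Lamb2* and *Lama2*, which are chains of the main vascular laminins, had log2 fold changes of 0.11, -0.081 and -0.35 with adjusted p of 0.342, 0.548 and 0.195. Endothelial markers (8 genes) summed to 231 to 269 CPM in the controls and 244 to 272 on day 13, and mural cell markers (9 genes) to 233 to 260.2 and 213 to 275 CPM. These sums gave p = 0.286 and 0.914 (two-sided exact permutation, 70 arrangements of 4 mice and 4), where 0.0286 is the smallest p the design allows. The sums hide moves in both directions. On day 13 the log2 fold changes ran from -0.42 to 0.39 over endothelial markers (median 0.31) and from -0.39 to 0.73 over mural markers (median -0.12). No marker of either list was called on day 13, and none was at 0 in all mice. In these bulk samples a change in the number of cells of a type and in RNA per cell cannot be told apart.

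**Figure D2:**
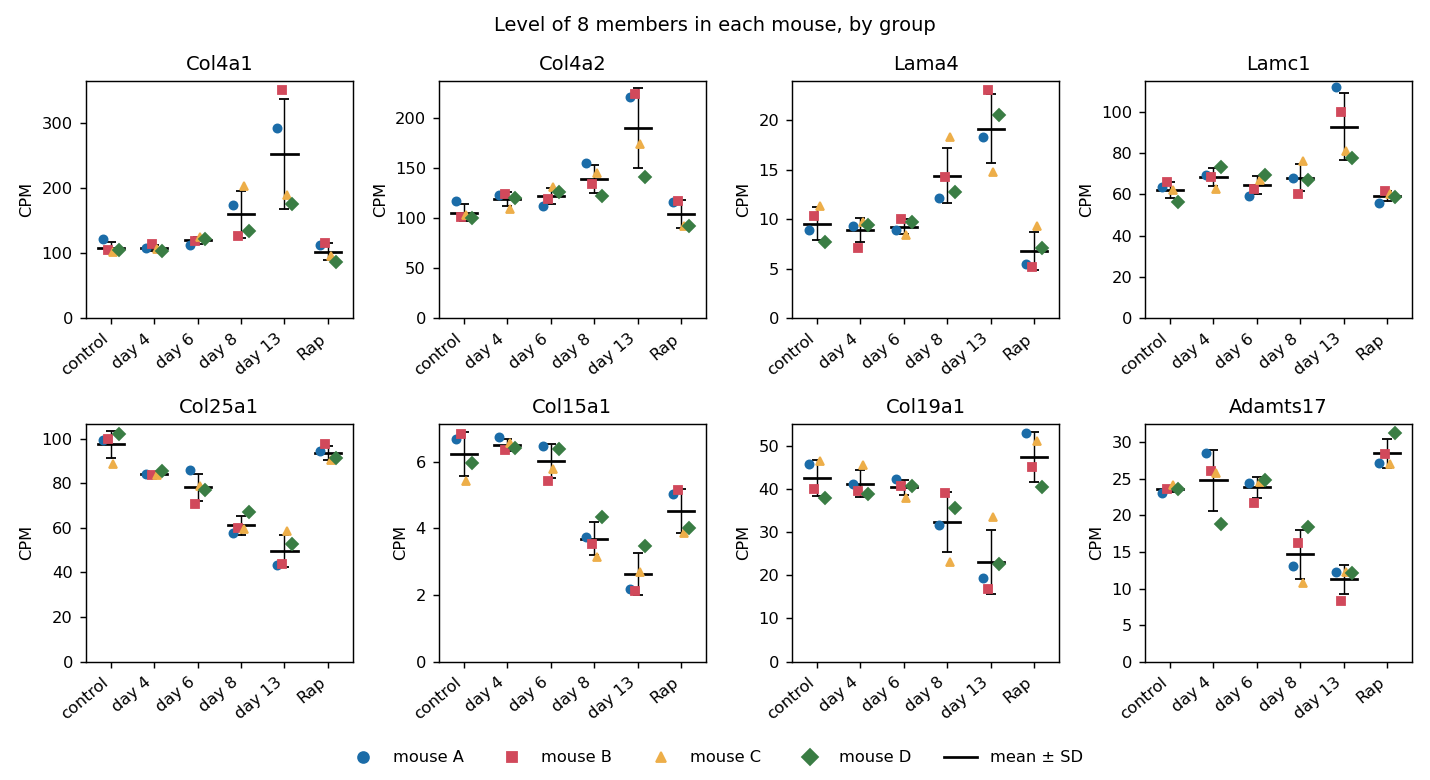
Level in CPM (vertical axis) of 8 members in each mouse of the 6 groups (horizontal axis), with 1 symbol per mouse, a bar at the mean and whiskers of 1 SD (n = 4). The upper row holds 4 basement membrane chains that were higher on day 13, and the lower row 4 members that were lower, and the rapamycin mice lie near the control level, except that *Lama4* and *Col15a1* lie mostly below it and *Adamts17* above it.

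Fibrillar collagens gave the largest rise. *Col3a1* (chr1:45311538-45349706, plus strand), the collagen of vessel walls and soft tissue, had 2.81, 3.67, 4.26 and 2.17 CPM in the controls and 14.1, 17.8, 6.42 and 16.1 on day 13, every mouse above the controls (log2 fold change 2.05, SE 0.31, adjusted p = 0.00221). Its day 8 mice were uneven, at 4.88, 1.21, 17.7 and 3.86 CPM. *Col5a3* and *Col5a2*, chains of the type V collagen that starts fibrils, were at 3.58, 4.15, 4.25 and 3.99 and 12.1, 13.2, 11.7 and 11.04 CPM in the controls. They reached 13.5, 26.6, 5.74 and 9.11 and 20.1, 22.5, 15.5 and 17.1 CPM on day 13, log2 fold changes of 1.76 (adjusted p = 0.0103) and 0.63 (adjusted p = 0.00600). *Col11a1*, the related type XI chain, stood at 86.9, 131, 46.2 and 40.4 CPM on day 13 against 34.7 to 41.7 in the controls, where mouse D lay (log2 fold change 1.02, SE 0.32, adjusted p = 0.0388). The *Col11a1* call was lost without any 1 of the 4 controls or of day 13 mice A and B (adjusted p up to 0.0961).

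*Col1a1* and *Col1a2*, which encode type I collagen, the usual partner of type III, did not pass and were named after their values were seen, with log2 fold changes of 0.33 and 0.49 and adjusted p of 0.565 and 0.307. Markers of fibroblasts and meninges (9 genes, some of them matrix genes) summed to 107 to 143 CPM in the controls and 91.7 to 129 on day 13 (exact permutation p = 0.514), and *Lum* and *Ogn* were the markers called of 8 tested, both lower.

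*Col16a1*, a fibril-associated collagen, showed a rise carried by a pair of mice. Its control levels were 18.03, 20.2, 22.4 and 20.96 CPM, and day 13 mice A to D read 97.1, 110.4, 19.6 and 22.5, so mice C and D lay at the control level (log2 fold change 1.59, SE 0.51, adjusted p = 0.0439). Without mice A and B the log2 fold change was 0.043 and the adjusted p 0.812, and the call was also lost without any 1 of the 4 controls (adjusted p up to 0.116 over all fits that left out 1 mouse). Day 8 mice A and C were also high for this gene, at 44.7 and 58.6 CPM, beside 20.5 and 16.98 in mice B and D.

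The 6 members that fell on day 13 were also low in mice C and D. *Col25a1* (chr3:130131501-130599877, plus strand) was at 43.5, 43.7, 58.4 and 52.6 CPM, below every control and every mouse of days 4, 6 and 8 except that mouse C overlapped day 8 (log2 fold change -0.995, SE 0.11, adjusted p = 0.000622). Its mean (± SD, n = 4) was 97.4 ± 5.98 CPM in the controls, and the groups of day 4, 6, 8 and 13 stood in that order at 84.2 ± 0.889, 78.1 ± 6.21, 61.1 ± 4.19 and 49.5 ± 7.24 CPM. Neighbouring groups overlapped from day 4 to day 6 and from day 8 to day 13, and against the controls the log2 fold changes of these days, -0.21 and -0.33, did not pass the fold minimum (adjusted p = 0.0185 and 0.00250).

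*Col15a1* was lowest on day 13 at 2.17, 2.12, 2.699 and 3.48 CPM (log2 fold change -1.28, SE 0.19, adjusted p = 0.00178), and *Adamts17* at 12.3, 8.25, 12.2 and 12.2 CPM (log2 fold change -1.09, SE 0.14, adjusted p = 0.00105), each below all controls. *Col19a1*, a fibril-associated collagen that hippocampal interneurons make, had 45.8, 39.9, 46.4 and 37.8 CPM in the controls and 19.3, 16.7, 33.5 and 22.7 on day 13 (log2 fold change -0.91, SE 0.20, adjusted p = 0.0102). *Col14a1*, another fibril-associated collagen, fell from 2.40, 3.39, 2.36 and 2.41 to 1.12, 0.972, 1.36 and 1.62 CPM with no overlap (log2 fold change -1.09, SE 0.21, adjusted p = 0.00619). Control mouse B, its highest, also had the most *Ttr*, a choroid plexus transcript, and the call held with *Ttr* in the model. *Adamts15*, which cuts the lectican proteoglycans, read 5.89, 5.64, 8.35 and 10.3 and 4.94, 4.56, 2.93 and 4.26 CPM (log2 fold change -0.87, SE 0.23, adjusted p = 0.0206), and its adjusted p was up to 0.0606 without control mouse C or D. The 8 neuron markers summed to 4052 to 4917 CPM in the controls and 4037 to 5247 on day 13 (exact permutation p = 0.343), and 1 of them, *Slc17a7*, was called, higher.

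Of the proteases, *Mmp19*, *Adamts13*, *Adamts18* and *Adamts8* rose. *Mmp19*, a secreted protease that cuts basement membrane proteins, was the only MMP called on day 13, at 1.45, 1.58, 1.62 and 1.78 CPM in the controls and 5.24, 7.53, 2.50 and 2.71 on day 13, with all 4 mice above the controls (log2 fold change 1.47, SE 0.33, adjusted p = 0.0106). *Adamts13*, which cuts von Willebrand factor, rose from 0.642, 0.400, 0.786 and 0.460 to 1.17, 2.41, 1.22 and 1.09 CPM (log2 fold change 1.36, SE 0.32, adjusted p = 0.0137). *Adamts18* stood at 1.504, 1.32, 1.82 and 1.55 and 2.08, 2.17, 3.81 and 2.92 CPM (log2 fold change 0.79, SE 0.22, adjusted p = 0.0288), a call lost without control mouse A, B or D (adjusted p up to 0.0793). *Adamts8*, a lectican-cutting enzyme, read 3.82, 3.77, 4.29 and 4.01 and 8.32, 9.43, 4.74 and 5.00 CPM (log2 fold change 0.77, SE 0.22, adjusted p = 0.0273), with an adjusted p of 0.171 without mice A and B and up to 0.0720 without 1 of them or of the controls.

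Neither gelatinase passed the test. *Mmp9*, a protease much studied in epilepsy, was at 1.06, 1.08, 1.37 and 1.25 CPM in the controls and 1.06, 0.981, 1.31 and 1.01 on day 13 (log2 fold change -0.16, SE 0.18, adjusted p = 0.544), and *Mmp2* at 2.00, 4.29, 1.82 and 2.05 and 1.75, 1.05, 1.82 and 2.26 CPM (log2 fold change -0.60, SE 0.33, adjusted p = 0.201). *Mmp2* was highest in the same mouse as the choroid plexus transcript *Ttr* in 5 of 6 groups, control mouse B among these mice. Of the more abundant surface enzymes, *Mmp17* had 186, 171, 171 and 166 and 204, 170.3, 199 and 194 CPM (log2 fold change 0.13, SE 0.078, adjusted p = 0.248). *Mmp16* was lower by a small step below the fold minimum, from 92.5, 89.3, 100.7 and 96.7 to 77.03, 74.7, 79.7 and 77.7 CPM with no overlap (log2 fold change -0.31, SE 0.063, adjusted p = 0.00699). These 4 genes were picked after their values were seen.

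Day 13 mice A and B stood apart from mice C and D in several members. By the numbers in the deposited names, A and B come from 1 run of animal numbers and C and D from 2 others, so run and response cannot be told apart. Their libraries were also the deepest, 69971957 and 126435936 counts beside 38423852 and 41101425 in mice C and D. *Xist*, which is transcribed from the inactive X of female cells, was at 2.00, 1.53, 810.2 and 816 CPM in day 13 mice A to D, so the pairs differ in sex too. In the controls it was at 3.12, 1055, 636 and 1070.1 CPM and on day 8, where mice A and C were the high ones for several members, at 837, 727, 848 and 3.18. With *Xist* in the model 16 members were called on day 13, and of the calls named here those of *Adamts8*, *Col11a1*, *Col16a1* and *Lamc1* were lost. *Adamts1*, a protease of versican and aggrecan, spread widely, at 227, 120.4, 39.1 and 22.2 CPM in day 13 mice A to D beside 29.8, 37.5, 32.9 and 27.1 in the controls. Mice A and B were thus above the controls, mouse C just above and mouse D below them, and the comparison did not pass (log2 fold change 1.66, SE 0.59, adjusted p = 0.0623), whereas DESeq2 called it. *Col12a1* (46.7, 54.8, 14.3 and 18.8 CPM), *Col27a1* (24.7, 20.1, 7.59 and 7.23 CPM) and *Adamts9* (62.2, 41.8, 18.5 and 17.9 CPM) were also highest in mice A and B without a call, beside 15.4 to 20.5, 6.93 to 8.88 and 23.6 to 25.4 CPM in the controls. *Col11a2*, a fibrillar chain, ran the other way, at 15.01, 10.8, 40.6 and 36.8 CPM on day 13 and 39.8, 48.3, 45.2 and 46.2 in the controls, also without a call (adjusted p = 0.131). *Col12a1*, *Col27a1* and *Adamts9* were named after their values were seen.

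Markers of reactive astrocytes (6 genes) moved with these mice. Their summed level was 56.5, 66.1, 56.1 and 56.3 CPM in the controls and 461, 894, 117 and 126 in day 13 mice A to D, the highest in A and B. On day 8 it was 165, 57.7, 255 and 65.96 CPM, again highest in mice A and C, and under rapamycin 54.8, 57.8, 62.5 and 51.9. Of 5 markers tested under rapamycin against the controls, 1 was called, the low-level *Lcn2*, which was higher. *Lcn2* read 0.798, 0.752, 0.853 and 0.406 CPM under rapamycin beside 0.257, 0.334, 0.220 and 0.307 in the controls. The day 13 sums differed from the controls at the smallest p the design allows (exact permutation p = 0.0286, adjusted 0.110 over 50 tests of 10 lists in 5 groups). All 5 markers tested were higher on day 13 by edgeR, *Cd44* with a log2 fold change of 4.39 and *Serpina3n* with 2.84. The part of these cells in the matrix changes was not tested. Without mice A and B, 14 of the 20 day 13 calls stayed with an unchanged direction, and those lost included *Adamts8*, *Col11a1*, *Col16a1*, *Col5a2* and *Lamc1*. Gained in that fit were 3 members, *Adamts16*, *Col10a1* and *Lama5*.

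**Figure D3:**
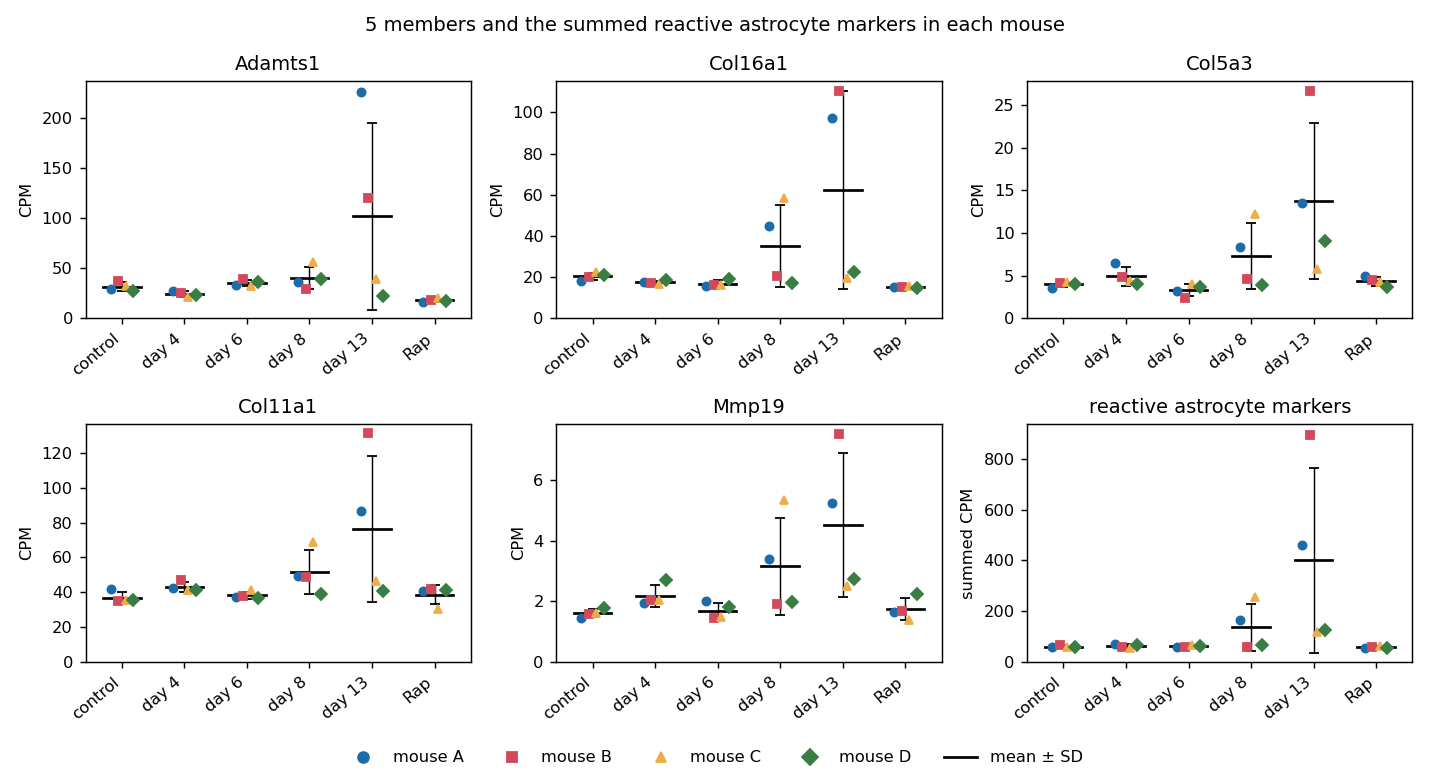
Level in CPM (vertical axis) of 5 members, and the summed CPM of 6 reactive astrocyte markers, in each mouse of the 6 groups (horizontal axis), with 1 symbol per mouse, a bar at the mean and whiskers of 1 SD (n = 4). Day 13 mice A and B are the highest of that group in every panel, and day 8 mice A and C the highest of theirs for *Col16a1*, *Col5a3*, *Mmp19* and the astrocyte markers.

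The stretches before the start sites of members that moved are shown because genes that change together can be compared for the letters they share there. Promoter windows came from RefSeq on GRCm38.p6, which lists 56 of the 85 members, and the 250 bases before each start were used. Of the 14 members that rose on day 13, 8 have a window, and of the 6 that fell, 4. The 5 windows shown are free of annotated exons and are written 5′ to 3′ up to the base before the start. Capitals mark matches, on either strand, to a TATA box spelled as TATAAA, to a CCAAT box of just these letters, to a GC box spelled as GGGCGG, to the half-site of the cyclic AMP response element, which is TGACG, or to an AP-1 site, which is TGANTCA with N for any base.
Col3a1: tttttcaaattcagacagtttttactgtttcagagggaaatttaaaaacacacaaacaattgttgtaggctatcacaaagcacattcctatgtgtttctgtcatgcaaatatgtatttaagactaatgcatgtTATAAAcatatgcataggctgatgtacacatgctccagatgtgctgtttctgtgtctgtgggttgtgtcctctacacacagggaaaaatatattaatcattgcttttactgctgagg
Col5a3: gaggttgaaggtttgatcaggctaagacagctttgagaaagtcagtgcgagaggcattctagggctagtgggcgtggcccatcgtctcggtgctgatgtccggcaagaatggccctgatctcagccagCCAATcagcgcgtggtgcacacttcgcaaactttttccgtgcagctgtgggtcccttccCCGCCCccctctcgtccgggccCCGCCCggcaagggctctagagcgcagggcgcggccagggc
Adamts1: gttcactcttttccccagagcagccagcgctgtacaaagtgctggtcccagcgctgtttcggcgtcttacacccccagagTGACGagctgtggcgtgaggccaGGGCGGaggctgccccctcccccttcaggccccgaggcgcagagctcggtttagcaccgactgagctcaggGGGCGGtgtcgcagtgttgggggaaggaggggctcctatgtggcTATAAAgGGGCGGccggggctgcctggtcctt
Col25a1: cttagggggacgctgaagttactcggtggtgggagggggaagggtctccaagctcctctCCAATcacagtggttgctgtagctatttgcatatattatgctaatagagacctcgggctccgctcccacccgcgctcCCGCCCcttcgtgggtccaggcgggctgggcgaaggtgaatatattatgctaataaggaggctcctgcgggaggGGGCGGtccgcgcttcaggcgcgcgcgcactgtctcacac
Adamts17: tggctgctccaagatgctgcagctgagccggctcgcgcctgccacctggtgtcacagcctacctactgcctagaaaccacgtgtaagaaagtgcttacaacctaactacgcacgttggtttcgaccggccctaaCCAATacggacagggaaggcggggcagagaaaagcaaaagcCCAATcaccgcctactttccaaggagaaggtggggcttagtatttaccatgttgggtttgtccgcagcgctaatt
The windows lie at chr1:45311288-45311537, plus strand (*Col3a1*), chr9:20815068-20815317, minus strand (*Col5a3*), chr16:85803114-85803363, minus strand (*Adamts1*), chr3:130180595-130180844, plus strand (*Col25a1*) and chr7:66839485-66839734, plus strand (*Adamts17*). In GENCODE, *Col25a1* also has longer transcripts, and its window falls in an intron of them.

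The 5 windows differ widely in base composition. *Col3a1* had 35.2% G and C with a TATA box 117 bases before the start, whereas *Adamts1* had 65.6% with a TATA box 32 bases before it and 3 GC boxes. *Col25a1* held a CCAAT box and 2 GC boxes, *Col5a3* a CCAAT box and 2 GC boxes, and *Adamts17* 2 CCAAT boxes. A CCAAT box was found in 5 of the 8 windows of members that rose and 2 of the 4 that fell, beside 28.6% of all member windows and 33.9% of all 32851 windows. GC boxes were in 62.5% of member windows and 32.7% of all windows, TATA boxes in 12.5% and 12.4%, half-sites in 16.1% and 17.8%, and AP-1 sites in 1.79% and 6.75%. Member windows were also richer in G and C, with a median of 61.6% beside 52.4% in all windows. The part of base composition in these shares was not tested. Neither the half-site nor the AP-1 letters were in the 12 windows of members called on day 13, and *Adamts1* held 1 half-site. A match is a description of letters and not a site.

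*Col4a1* and *Col4a2* lie head to head on chromosome 8. Their RefSeq starts are at 11312826 on the minus strand and 11312805 on the plus strand, so that the first exons share 22 bases, and both windows lie wholly in annotated exons and are not printed. Strand was kept in the libraries, but the strand setting of the counting is not given in the sources used here, so reads from the shared stretch may be split between the genes. Other called members whose exons overlap another annotated gene are *Adamts4*, *Mmp19* (*Tmem198b*), *Col15a1*, *Col22a1*, *Col6a6* and *Adamts8* on the opposite strand and *Col3a1* (*Gm47302*) on the same strand, and their levels are uncertain to that extent.

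Rapamycin-treated mice were compared with untreated mice of the same day to ask which matrix genes differ when mTORC1 is inhibited from day 4. The day 13 mice are shared with the comparison above, so the values are set side by side. By family, 12 of 43 collagens were lower and 4 higher, 2 of 11 laminins were lower, 2 of 12 MMPs were lower and 1 higher, and 6 of 19 ADAMTS proteases were lower and 1 higher. Among all genes 11.2% were lower and 9.94% higher. *Col3a1* stood at 2.15, 1.65, 3.35 and 1.02 CPM under rapamycin beside 14.1, 17.8, 6.42 and 16.1 on day 13, the largest difference of all members (log2 fold change -2.73, SE 0.39, adjusted p = 0.00119). *Col4a1* was at 112, 115, 95.8 and 87.4 (log2 fold change -1.28, SE 0.20, adjusted p = 0.00188), *Col4a2* at 116, 117, 92.3 and 92.04 (log2 fold change -0.85, SE 0.15, adjusted p = 0.00296) and *Lama4* at 5.45, 5.20, 9.32 and 7.11 CPM (log2 fold change -1.49, SE 0.20, adjusted p = 0.000971). In all 4 genes each rapamycin mouse was below each day 13 mouse. *Lamc1* read 55.8, 61.7, 60.1 and 58.5 CPM (log2 fold change -0.64, SE 0.11, adjusted p = 0.00284).

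*Col16a1* was even across the rapamycin mice, at 15.2, 15.1, 15.7 and 14.7 CPM (log2 fold change -2.02, SE 0.50, adjusted p = 0.0140), as was *Adamts1* at 16.3, 18.1, 20.7 and 17.8 CPM (log2 fold change -2.47, SE 0.59, adjusted p = 0.0118). *Col5a3* (5.00, 4.48, 4.25 and 3.70 CPM, log2 fold change -1.65, adjusted p = 0.0105), *Mmp19* (1.63, 1.68, 1.37 and 2.23 CPM, log2 fold change -1.37, adjusted p = 0.0135) and *Adamts13* (0.382, 0.734, 0.666 and 0.406 CPM, log2 fold change -1.41, adjusted p = 0.0107) were lower too. *Adamts8* (-0.81), *Adamts18* (-1.30), *Col5a2* (-0.78) and *Col11a1* (-0.97), with the log2 fold change in brackets, completed the lower members described above. The others that were lower than on day 13 were *Col4a6* (-0.92), a minor type IV chain, the collagen VI chains *Col6a3* (-0.81) and *Col6a5* (-1.27), *Col18a1* (-1.37), the source of endostatin, *Col27a1* (-1.13), *Mmp15* (-0.81), *Adamts4* (-0.83) and *Adamts19*. *Adamts19* was called narrowly on uneven levels of 3.21, 2.52, 0.398 and 1.32 CPM on day 13 and 0.208, 0.251, 0.333 and 1.16 under rapamycin (log2 fold change -1.91, SE 0.65, adjusted p = 0.0467), and without day 13 mice A and B its adjusted p was 0.426.

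In the other direction, *Col25a1* stood at 94.4, 97.5, 90.5 and 91.3 CPM under rapamycin, above every day 13 mouse (log2 fold change 0.92, SE 0.11, adjusted p = 0.000543). *Adamts17* was at 27.2, 28.4, 26.99 and 31.3 CPM (log2 fold change 1.35, SE 0.14, adjusted p = 0.000388), above every control, and *Col19a1* at 52.99, 45.04, 50.99 and 40.5 (log2 fold change 1.05, SE 0.20, adjusted p = 0.00446). *Col15a1* came to 5.03, 5.16, 3.87 and 4.02 CPM (log2 fold change 0.81, SE 0.20, adjusted p = 0.0141), between day 13 and the controls, and *Col14a1* to 2.36, 2.10, 2.62 and 2.33 (log2 fold change 0.91, SE 0.20, adjusted p = 0.00838). *Mmp21*, a protease of left-right patterning in the embryo, was also higher than on day 13 (2.36, 1.88, 1.39 and 1.46 against 1.20, 1.25, 0.767 and 1.01 CPM), a narrow call (log2 fold change 0.73, SE 0.23, adjusted p = 0.0381) that was lost without any 1 of the 4 day 13 mice or of rapamycin mice A, B and D (adjusted p up to 0.104).

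Without day 13 mice A and B, 20 members were called between rapamycin and day 13, 7 higher and 13 lower, and 16 of the 28 were among them. The 12 that were not were *Col4a6*, *Col6a3*, *Col6a5*, *Col11a1*, *Col15a1*, *Col16a1*, *Col18a1*, *Col27a1*, *Lamc1*, *Mmp19*, *Adamts8* and *Adamts19*, of which *Col16a1* and *Lamc1* fell short of the fold minimum only. Gained in that fit were 4 members not called with all mice, *Col1a1*, *Col1a2*, *Col5a1* and *Col10a1*. With all mice and the level of the choroid plexus gene *Ttr* in the model, the count was 18. Endothelial markers summed to 194 to 204 CPM in the rapamycin group, below their day 13 and control ranges given above, and 4 of 8 (*Kdr*, *Cdh5*, *Pecam1* and *Cldn5*) were lower than on day 13 by edgeR. The part of vessel cells in the lower basement membrane levels was not tested.

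**Figure D4:**
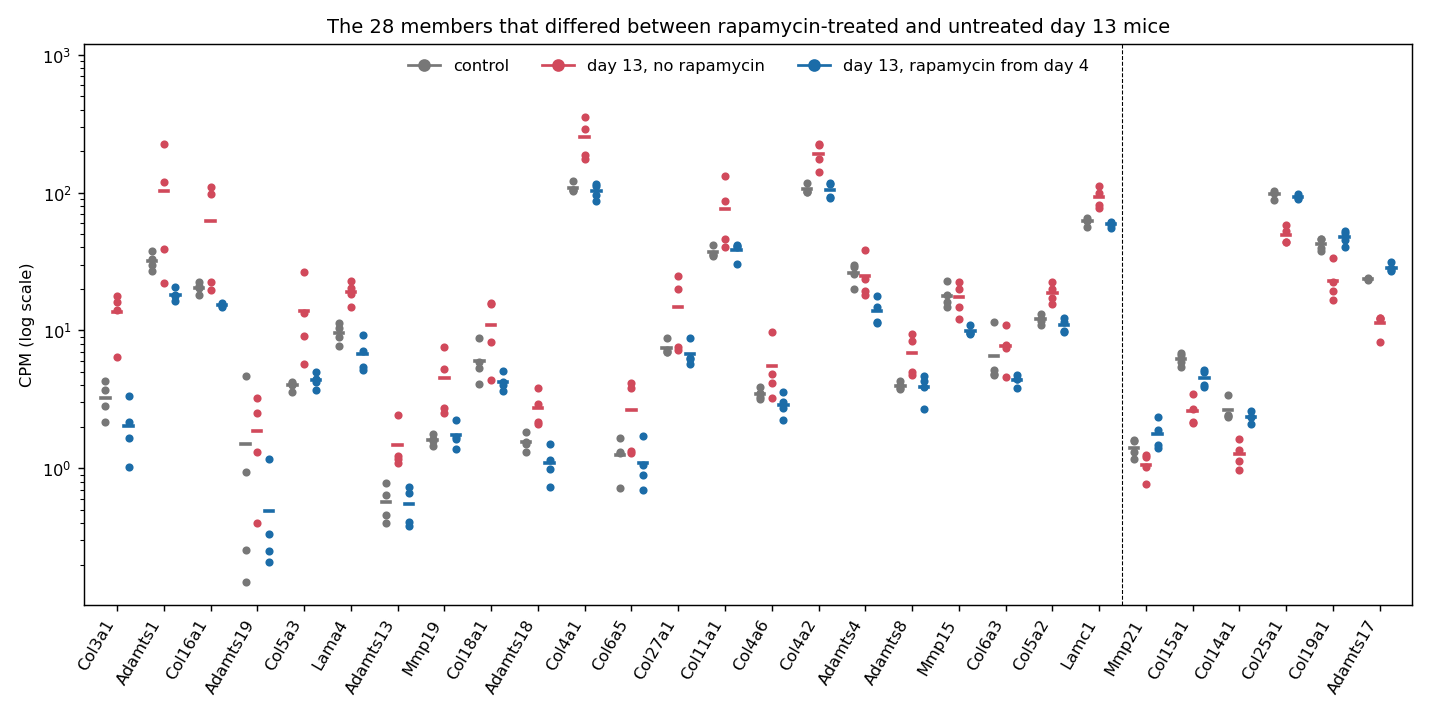
Level in CPM (vertical axis, log scale) of the 28 members called between rapamycin-treated and untreated day 13 mice, in each control, day 13 and rapamycin mouse (points) with a bar at the group mean. Genes are ordered by fold change, with the 22 that were lower under rapamycin left of the dashed line and the 6 that were higher right of it.

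Against the controls, the rapamycin group had 6 members lower (7.06%, beside 1.04% of all genes) and 0 higher by edgeR (beside 0.372% of all genes) or DESeq2. The control mice are those of the comparisons above. No Cre-negative mice received rapamycin and the controls were taken on day 8, so drug, loss of *Tsc1* and day cannot be told apart. The 3 proteases were *Adamts1*, *Adamts4* and *Mmp15*. *Adamts1* was at 16.3, 18.1, 20.7 and 17.8 CPM beside 29.8, 37.5, 32.9 and 27.1 in the controls (log2 fold change -0.80, SE 0.10, adjusted p = 0.00120), *Adamts4*, a lectican-cutting enzyme, at 11.3, 11.6, 14.7 and 17.9 beside 19.96, 29.6, 25.6 and 28.99 (log2 fold change -0.90, SE 0.15, adjusted p = 0.00556), and *Mmp15*, a membrane-type MMP, at 9.37, 9.53, 10.9 and 9.60 beside 15.98, 22.9, 14.7 and 18.1 (log2 fold change -0.86, SE 0.12, adjusted p = 0.00254). In each, all 4 rapamycin mice were below all 4 controls.

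The 3 collagens were *Col11a2* (32.8, 32.2, 25.2 and 28.9 CPM under rapamycin, log2 fold change -0.59, SE 0.083, adjusted p = 0.00230), *Col22a1* (3.96, 4.68, 3.39 and 3.37 CPM, log2 fold change -0.68, SE 0.15, adjusted p = 0.0294) and *Col6a6* (1.04, 0.985, 0.708 and 0.893 CPM, log2 fold change -0.86, SE 0.19, adjusted p = 0.0266). *Col22a1* and *Col6a6* lost the call in fits without 1 mouse (adjusted p up to 0.0717 and 0.0835), for *Col22a1* control mouse A or D or rapamycin mouse A, C or D, and for *Col6a6* control mouse A, B or C or rapamycin mouse B, C or D. With all 24 mice in the fit, 3 members were called, and *Adamts1*, *Col11a2* and *Col6a6* were not (adjusted p = 0.426, 0.337 and 0.160). Summed markers of endothelial, mural, astrocyte, microglial and oligodendrocyte precursor cells were each lower in all 4 rapamycin mice than in all controls (exact permutation p = 0.0286, or 0.110 after adjustment over the 50 tests). This was not particular to rapamycin. In untreated day 6 mice all these sums except the mural one also lay below all controls, at the same p values. The oligodendrocyte precursor sum did so on days 4 and 8 too. The part of these cells was not tested.

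Across all 6 groups at once, an F test of edgeR found a difference in 42 of the 85 members (49.4%), beside 41.9% of all 27110 genes, in 22 of 43 collagens, 4 of 11 laminins, 5 of 12 MMPs and 11 of 19 ADAMTS proteases. Its smallest adjusted p among members was that of *Col25a1*, 8.37e-09, followed by *Col15a1* at 4.38e-07, *Adamts17* at 4.8e-07, *Col4a1* at 1.79e-06 and *Lama4* at 1.88e-06. The share of members is thus near that of all genes.

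The other 51 members were called in none of the 6 comparisons, a count without its share over all genes, namely 23 collagens, 8 laminins, 9 MMPs and 11 ADAMTS proteases. In some of these, single mice varied widely with choroid plexus RNA, which can come along with a dissected hippocampus. *Ttr*, the main choroid plexus transcript, ranged from 5.69 to 1502 CPM over the 24 mice. *Col8a1*, *Col8a2*, *Col9a3*, *Col4a3* and *Col4a4* were highest in the same mouse as *Ttr* in 6 of 6 groups, as noted after the values were seen. *Col8a1*, a network-forming collagen, was at 0.844, 12.3, 1.89 and 1.03 CPM in control mice A to D, where *Ttr* was at 18.4, 1502, 39.9 and 28.8, and at 1.04, 0.788, 5.16 and 0.528 under rapamycin, where *Ttr* was at 5.69, 48.1, 465 and 20.7.

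Genes that work with the members were taken from 7 lists. Of 15 basement membrane partners, 3 were higher and 1 lower on day 13, the largest being *Nid1*, which links laminin to type IV collagen (7.67, 8.08, 8.20 and 6.53 CPM in the controls, 16.2, 20.8, 12.95 and 20.2 on day 13, log2 fold change 1.18, SE 0.16, adjusted p = 0.00115), and *Smoc2* (log2 fold change 0.92, adjusted p = 0.0244). Of 27 enzymes that mature collagen, 6 were higher and 1 lower, led by *Lox*, which cross-links collagen (0.404, 1.07, 0.566 and 0.402 and 3.83, 3.51, 1.65 and 1.78 CPM, log2 fold change 2.12, SE 0.39, adjusted p = 0.00478), and by *Tll1*, a procollagen C-proteinase (5.60, 5.81, 6.15 and 5.25 and 40.9, 47.3, 6.31 and 5.63 CPM, log2 fold change 2.11, SE 0.63, adjusted p = 0.0347). Under rapamycin *Nid1* was at 5.62, 5.09, 7.85 and 6.86 and *Lox* at 0.694, 0.466, 0.458 and 0.589 CPM, both lower than on day 13 (adjusted p = 0.000731 and 0.00112).

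Among 10 protease inhibitors, 2 were higher. *Timp1*, an inhibitor of MMPs, read 2.86, 2.55, 2.55 and 2.26 CPM in the controls and 11.8, 19.1, 2.41 and 2.74 on day 13, so that mice C and D were at the control level (log2 fold change 1.80, SE 0.58, adjusted p = 0.0452), and *A2m* had a log2 fold change of 1.49 (adjusted p = 0.0405). *Timp2*, *Timp3* and *Timp4* did not pass, at log2 fold changes of 0.10, 0.22 and -0.25 (adjusted p = 0.443, 0.115 and 0.390).

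Of 15 lecticans, link proteins, tenascins and hyaluronan genes, 5 were higher, the largest being *Cd44*, the hyaluronan receptor and also one of the reactive astrocyte markers (2.11, 3.49, 4.70 and 2.78 and 118, 151, 5.62 and 5.33 CPM, log2 fold change 4.39, SE 1.05, adjusted p = 0.0148), and *Has2*, a hyaluronan synthase (8.46, 11.2, 1.11 and 0.330 CPM on day 13, log2 fold change 3.41, adjusted p = 0.0210). Interstitial glycoproteins and small proteoglycans gave 5 higher and 4 lower of 22, with *Spp1* at a log2 fold change of 2.83 (adjusted p = 0.0223) and *Ogn* at -2.59 (adjusted p = 0.00115). *Ogn* was low in all 4 day 13 mice, at 1.20, 0.836, 1.39 and 2.82 CPM beside 9.36, 10.4, 9.19 and 7.17 in the controls and 8.29, 8.24, 10.4 and 8.63 under rapamycin. Receptors gave 3 higher of 16 tested, led by *Ddr2*, a collagen receptor (log2 fold change 1.43, adjusted p = 0.0122), and *Itgb1* (log2 fold change 0.59, adjusted p = 0.0175). Other metzincin genes gave 3 higher and 2 lower of 13, with *Adamtsl3* at a log2 fold change of 0.92 (adjusted p = 0.0201) and *Adam8* at -0.82 (adjusted p = 0.0148). Without day 13 mice A and B, the calls of *Smoc2*, *Tll1*, *Timp1*, *A2m*, *Cd44*, *Has2*, *Spp1*, *Itgb1*, *Adamtsl3* and *Adam8* were lost. The lists were small, and all genes gave 8.4% higher and 8.06% lower.

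For *Col3a1*, *Col5a3* and *Col16a1*, named members with large changes on day 13, the members of most similar level over the 24 mice were ranked by Spearman's rho, as a description of libraries that share groups and depth. *Col3a1* was closest to *Lamc1* (0.747), *Lama4* (0.721) and *Adamts18* (0.713). *Col5a3* was closest to *Col11a1* (0.658), *Adamts8* (0.652) and *Col4a2* (0.626). *Col16a1* ran closest to *Lama4* (0.784), *Col5a2* (0.698) and *Col4a6* (0.667).

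At the edge of the CPM minimum, *Col28a1* ranged from 0.230 to 1.21 CPM over the 24 mice with no call. *Col9a1*, just outside, had 0.330, 1.00, 0.629 and 0.422 CPM in the controls and 0.215, 0.136, 0.682 and 0.710 on day 13. *Mmp25*, also outside and also tested, stood at 0.861, 0.597, 0.540 and 0.660 CPM on day 13 and 0.139, 0.179, 0.291 and 0.122 under rapamycin, where it was lower (log2 fold change -1.82, SE 0.34, adjusted p = 0.00374). The other 8 genes outside are all MMPs, with 1 to 159 counts each over the 24 mice.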

How the data were processed

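Stranded, rRNA-depleted total RNA libraries from the hippocampi of 24 mice were sequenced by the authors, who trimmed the reads with cutadapt 1.16.5, aligned them to mm10 (GRCm38) with STAR 2.7.2b and counted them per gene with featureCounts 1.6.4, and deposited 1 table of raw counts per mouse, not normalized. The strand setting of the counting, and whether read pairs or single reads were counted, are not given in the sources used here. Between 62.5% and 65.7% of counts from 1 to 20 were even numbers. Gene symbols, biotypes, exon lengths and coordinates came from GENCODE M21, in which 55144 of 55385 identifiers were found. No pair of libraries was identical, and same-group pairs differed by more than counting noise.

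Mice were grouped by their labels. Each comparison was fitted on its 8 mice with edgeR 4.0.16 (R 4.3.3) after filterByExpr and TMM scaling, with Benjamini-Hochberg adjustment over all genes tested. Calls needed an adjusted p under 0.05 as well as a log2 fold change beyond 0.5 in size. The F test over 6 groups used all 24 mice and no fold minimum. On simulated counts with 200 genes changed 2-fold in the day 4 comparison, edgeR recovered 99.5% and called 20 unchanged genes of 25355, and DESeq2 1.42.0 recovered 98%. The simulation gave every gene the same dispersion, 0.02, and changed only genes above a minimum count. Several members spread more widely on day 13 and some called members had fewer counts, so these shares do not carry over to them. Total counts set the precision: the shallowest library held 28208561 counts.

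The members and the gene lists were chosen with earlier results of these data known. Members named with values were, per family, comparison and direction, the 3 called members of largest change, the highest member per kb of each family, and those within 20% of the CPM minimum, and others are said to have been chosen after their values were seen. Of the partner lists, the 2 largest called changes on day 13 and the TIMPs were named. A few results covered by these rules are not reported here. Alternatives were DESeq2, its size factors, no filter, all 24 mice, a replicate block, *Ttr* or *Xist* as a covariate, other fold minimums, each mouse left out in turn and, chosen after the data were seen, day 13 without mice A and B.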

Additional observations from a re-analysis of the deposited data

Results flagged for a closer look

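Among the 31 genes named by rule, a mouse stood apart from the other 3 of its group in 16 of 186 groups, by a gap to the nearest beyond Dixon's 95% limit for 4 samples, where chance gives about 1 in 20. On day 13, mouse B was high for *Adamts13* (gap 0.901 of the range) and low for *Adamts17* (0.965). In the controls, mouse A was high for *Col4a1* (0.858) and *Col4a2* (0.832), and mouse B, which also had the most *Ttr*, for *Col14a1* (0.946). On day 4, mouse D was high for *Adamts18* (0.850) and *Mmp19* (0.851) and mouse B low for *Lama4* (0.843). On day 6, mouse B was low for *Adamts17* (0.873) and mouse A for *Mmp21* (0.881). On day 8, mouse C was high for *Adamts19* (0.891) and mouse B for *Mmp15* (0.903). Under rapamycin, mouse C was high for *Adamts15* (0.834) and *Mmp15* (0.847), mouse D for *Adamts19* (0.869), and mouse A low for *Col9a1* (0.861).

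Some proteases below the CPM minimum had counts on day 13 above the controls. *Mmp3*, stromelysin-1, reached 76 counts in mouse B and 71 in mouse A, with 0 and 2 in mice C and D and 0 in the 4 controls. *Mmp12*, macrophage elastase, reached 10 counts in mouse A, and *Mmp8*, neutrophil collagenase, 8 in mouse B, with 0 for both in the controls. *Mmp8* also had up to 8 counts in a rapamycin mouse. A count of 0 allows up to 3 counts in a library.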

How the results depend on the processing

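Of the 54 changes of named members, 383 of 424 refits under other settings kept the call and 41 did not, and 359 of 432 refits without 1 mouse kept it and 73 did not. None changed direction. DESeq2 on the same mice, and edgeR with its size factors, called all 54.

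Counts of members called moved by over 1.5 times as follows. Apart from the fits without day 13 mice A and B, the shares of all genes called in alternative fits are not given. These counts therefore do not set the members apart from other genes. Without a fold minimum they were 2 on day 4, 9 on day 6, 12 on day 8 and 12 for rapamycin against the controls, and with an absolute log2 fold change over 1 they were 0, 0, 1 and 0 there, 11 on day 13 and 15 between rapamycin and day 13. Without a filter on low counts, 2 were called on each of days 4 and 6. With *Ttr* as a covariate the counts were 2 on day 4, 3 on day 6 and 18 between rapamycin and day 13, and with *Xist* 2 on day 4. With all 24 mice in 1 fit, 0 were called on day 6 and 3 for rapamycin against the controls, where DESeq2 called 10. Leaving out 1 mouse gave 1 to 2 on day 4, 0 to 4 on day 6 and 4 to 11 on day 8. The day 6 count was 0 without day 6 mouse A, C or D, 3 without control mouse A and 4 without control mouse B. The day 8 count was 4 without control mouse B or D and 11 without day 8 mouse D. On day 13 it was 14 to 28, between rapamycin and day 13 it was 19 to 35, and in the F test 32 to 46. Apart from the fits with fewer mice or genes, the cause was not tested.

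Same-lettered mice did not deviate together (correlations of -0.206 to 0.211), so the letters were not taken to pair the mice. With a replicate block, 1, 0, 6 and 16 members were called on days 4, 6, 8 and 13, 9 for rapamycin against the controls, 26 between rapamycin and day 13 and 36 in the F test. Of 105 alternative counts for partner lists, 74 stayed within 1.5 times, 21 were smaller and 10 larger. The 4 mice a group and runs of animal numbers that follow the groups limit these comparisons, and low members such as *Col6a6* and *Adamts19* rest on few counts.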

Other observations

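Some matrix genes that are neither members nor among the largest changes of their list moved too. *Dcn*, decorin, a small proteoglycan of collagen fibrils, stood at 8.15, 15.6, 12.3 and 6.17 CPM in the controls, 14.00, 16.4, 19.6 and 25.3 on day 13 and 8.64, 6.395, 15.4 and 5.48 under rapamycin, lower there than on day 13 (log2 fold change -1.06, SE 0.31, adjusted p = 0.0273). *Lum*, lumican, a proteoglycan of the same family, read 2.94, 4.24, 3.95 and 2.40 CPM in the controls and 1.88, 2.01, 1.05 and 2.33 on day 13, where it was lower (log2 fold change -0.91, SE 0.26, adjusted p = 0.0295), a call lost without control mouse A, B or C or day 13 mouse A or B (adjusted p up to 0.0842). *Ncan*, neurocan, a lectican of the brain's perineuronal matrix, read 309, 283, 279 and 269 CPM in the controls and 650.1, 701, 502 and 459 on day 13 (log2 fold change 0.997, SE 0.12, adjusted p = 0.00101), and *Acan*, aggrecan, 9.94, 13.1, 13.4 and 10.9 and 23.99, 34.1, 27.5 and 23.4 CPM (log2 fold change 1.18, SE 0.14, adjusted p = 0.000869). *Hapln4*, a link protein of the same nets, read 54.03, 44.4, 47.8 and 44.7 and 118, 109, 111 and 115 CPM (log2 fold change 1.23, SE 0.079, adjusted p = 8.9e-05). Unlike *Timp1* and *Tll1*, *Ncan*, *Acan* and *Hapln4* kept their calls without day 13 mice A and B, and all 5 genes were named after their values were seen.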
